A study of Drosophila melanogaster with 10 samples.

Results

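The array of hour 7 is 1 of 10 Affymetrix Drosophila arrays that followed whole flies through a course of 12 hours, and it was set here against the other 9. It was selected on its measured values, in which transcripts of the testis and of the male seminal glands stood above those of the other arrays. For each probe set, the set of short probes that reads 1 transcript, the hour 7 intensity was compared with the median of the other 9 arrays. A probe set is called raised here when hour 7 was at least 2-fold above that median and above the highest of the other 9, and lowered in the mirrored case. 39 of 13966 probe sets were raised, which is 0.279%, and 0 were lowered, which is 0%. A floor of 57.2, below which 20 percent of the intensities lay, replaced lower values before the fold was taken, and dim probe sets were kept. Without the floor 76 were raised and 6 lowered, and after a filter on dim probe sets 15 were raised.

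Drosophila melanogaster larvae were grown on standard food until early in the last larval stage and then on food without yeast. The flies of all 10 arrays were still on that food when the course began, 4 days after they emerged, and they stayed on it. 1 array was made at each of hours 1, 2, 3, 5, 6, 7, 9, 10, 11 and 12, and hours 4 and 8 gave too little RNA, per the labels. Flies returned to yeast and the samples taken before the course were not used here. The labels used here give no strain, no sex and no number of flies pooled per array. Hour 7 has no second array, so nothing below has a replicate check, the number of arrays limits the precision, and the values are descriptions without a test.

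In the fly testis, spermatocytes make and store many messengers that are translated only later, in the elongating spermatids, where they supply the sperm tail and the compact chromatin of the sperm head. The paired accessory glands and the ejaculatory duct and bulb make proteins of the seminal fluid, which pass to the female at mating and act on sperm storage, egg laying and her readiness to mate again. Many of these genes are expressed almost only in males. The yolk proteins, the eggshell proteins and the maternal messengers of the ovary are the female counterparts, and lists of both kinds are described here.

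The sperm tail family of proteins rich in Cys-Gly-Pro repeats was raised at hour 7 in 5 of 7 genes measured, and all 7 lay above the other 9 arrays. Over all genes, taken as the brightest probe set of each, 29 of 10844 were raised, which is 0.267%, and 1143 lay above the range of the other 9, which is 10.5%. The array was picked for such values, so nothing is read from the difference between these shares. In RNA of whole animals, a larger share of a tissue or of male flies and more RNA per cell cannot be told apart.

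Mst84Dd had an intensity of 754 at hour 7, and the other 9 arrays ran from 119 to 130.2 with a median of 123. That is 6.11-fold, or 2.61 on the log2 scale. The other 9 arrays were nearly flat, with the highest 1.09-fold above the lowest. Mst87F read 575 at hour 7 against 90.5 to 115 elsewhere, with a median of 105, a log2 difference of 2.46. Mst84Da read 585 against 164 to 209.8 (median 189.9), a log2 difference of 1.62. Mst84Db read 548 against 216 to 261 (median 238), a log2 difference of 1.20. These 4 genes encode structural proteins of the sperm tail. Hour 7 was above the highest other array by 2.10-fold in Mst84Db to 5.79-fold in Mst84Dd.

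Mst98Cb, of the same family, read 153 against 65.2 to 78.4 (median 68.4), a log2 difference of 1.16. 2 members fell short of the 2-fold rule and still lay above the other arrays. Mst84Dc read 671 against 336 to 388 (median 346), a log2 difference of 0.96. Mst98Ca read 631 against 444 to 549 (median 509), a log2 difference of 0.31. The median difference of the 7 genes was 1.20, beside 0 over all genes. When each other array was compared with its own 9, among which hour 7 then counts, the family's median lay between -0.07 and 0.04.

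**Figure D1:**
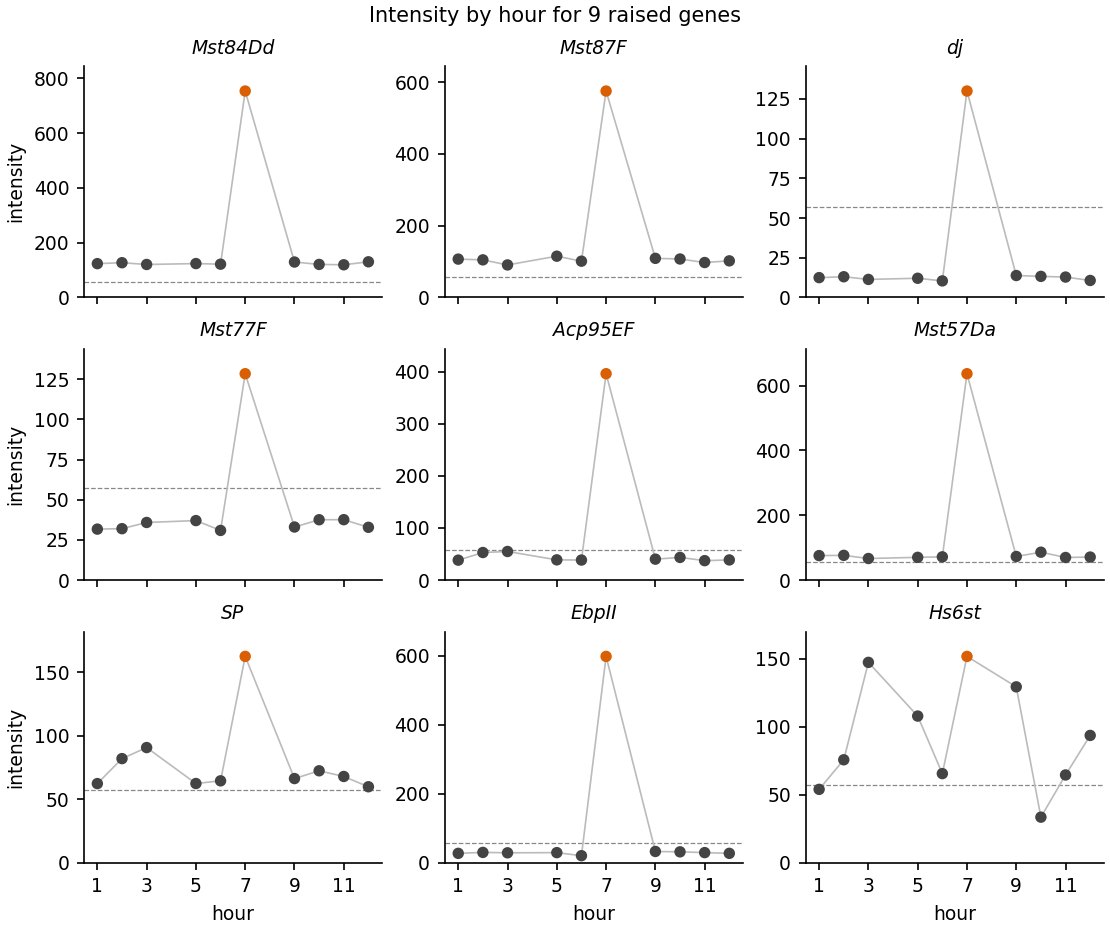
Intensity of 9 raised genes on each of the 10 arrays (linear axis from 0) by hour, with 1 point per array, hour 7 in orange, the floor of 57.2 dashed and no error bars because each hour has 1 array. Mst84Dd stands at 754 and Acp95EF at 396 at hour 7, far above a nearly flat course, whereas Hs6st varies and reaches 147 on another array beside 152 at hour 7.

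Sperm chromatin genes followed with 1 raised of 6 measured and 5 above the range. Mst77F, a linker-histone-like protein of the condensed sperm nucleus, read 128 at hour 7 against 30.9 to 37.6 (median 33), at least 2.24-fold. Where the other arrays lie under the floor, as they do here, the fold is taken against the floor and is a lower bound. tHMG2, a testis high mobility group protein, read 243 against 147 to 229.6, a log2 difference of 0.50. Its relative tHMG1 read 103 against 41.3 to 51.2, at least 1.80-fold. ProtB, a protamine-like protein, read 17.9 against 3.19 to 9.95, above the other arrays but under the floor on all 10. Mst33A read 10.3 against 5.98 to 11.8 and was the 1 member inside the range.

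Genes of spermatid differentiation were a mixed group, with 3 raised of 38 measured, 16 above the range and 1 below it. S-Lap7, a sperm leucyl aminopeptidase, read 267 at hour 7 against 92.8 to 116 (median 96.1), a log2 difference of 1.47. dj, which encodes the Don juan protein of the sperm tail, read 130.0 against 10.4 to 13.8 (median 12.5). Its fold was at least 2.27 over the floor, and 10.4 between the intensities as deposited. ocn, a testis gene, read 129.7 against 23.5 to 36.7 (median 30.0), at least 2.27-fold. Being raised excludes overlap with the other arrays in all 3, and for dj and ocn the other arrays lay under the floor.

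Further members of that list stood above the range with smaller differences. soti, an inhibitor of a ubiquitin ligase that sets caspase activity in spermatids, read 153 against 69.4 to 114, a log2 difference of 0.89. S-Lap8 read 215 against 106 to 157, a log2 difference of 0.85. betaTub85D, the testis beta tubulin, read 137 against 75.9 to 103, a log2 difference of 0.71. Other members lay among the other arrays. bol, a translational regulator of male meiosis, read 700.0 against 439 to 709. twe, the meiotic Cdc25 phosphatase, read 38.3 against 31.8 to 42.5. fzo, the mitofusin of the spermatid, was the member below the range, with 33.8 against 36.3 to 59.1, all but 1 of these values being under the floor. The median over the 38 genes was 0.06, or 0.19 without the floor. Without the floor the hour 3 array had the same median, 0.19, when compared with its own 9, and 8 of the 38 genes stood above the range there.

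The regulators that act earlier in the male germline did not stand apart in this way. Of 12 genes listed as spermatocyte arrest genes, many of which switch on the transcription program of the spermatocyte, 0 were raised, 2 lay above the range and 1 below. aly, a component of the testis meiotic arrest complex, read 177 against 158 to 179.8, and sa, a testis TAF, read 144 against 128 to 236. The median of the list was 0 on the floored scale and -0.03 without the floor. Of the 3 early germline genes measured, bam, which drives the germline stem cell daughter to differentiate, read 143 against 126 to 147, and zpg, a germline gap junction gene, read 297 against 303 to 375, below the range. Testis proteasome subunits had 0 raised of 12 and 2 above the range, among them Prosalpha4T1 with 131 against 77.1 to 118. None of the 13 listed Y-linked fertility genes was named by a probe set here, so their levels are not given.

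Accessory gland genes were raised in 4 of 26 measured, and 20 of the 26 stood above the range of the other 9, with 1 below it. Mst57Da read 637 at hour 7 against 66.7 to 86.2 (median 71.9), an 8.86-fold difference, or 3.15 on the log2 scale. Acp95EF read 396 against 37.4 to 54.9 (median 38.9), at least 6.92-fold. Both encode small secreted products of the gland, and hour 7 was 7.39-fold and 7.21-fold above the highest other array. Acp36DE, a glycoprotein needed for sperm storage in the mated female, read 189 against 64.0 to 74.1 (median 68.5), a log2 difference of 1.46. SP, the sex peptide, which raises egg laying and lowers remating in the female, read 163 against 59.9 to 90.8 (median 66.4), a log2 difference of 1.29. These 4 differ in size, and the rule for raised requires that all 9 other arrays lie under hour 7.

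16 of the 26 accessory gland genes had a median under the floor on the other arrays, and 11 were under it at hour 7 too. Their median difference was 0.12 with the floor and 0.77 without it, and 25 of 26 were positive without it. Acp32CD, a gland product, read 111 against 30.5 to 40.3. Acp53C14b read 98.7 against 33.8 to 46, and Mst57Dc read 88.6 against 26.6 to 36.5. Dimmer members moved among low values, such as Acp53Ea with 37.2 against 7.48 to 14.1 and Acp26Aa, whose product promotes ovulation, with 24.0 against 5.57 to 13.6. The median without the floor lay between -0.11 and 0.09 on the other arrays. Exceptions at hour 7 included intr with 191 against 163 to 224 and aqrs with 159.8 against 130.7 to 173.4, both inside the range. antr, Sems and Spn28F were inside it too. The serpin Spn28Db, with 49.8 against 55.5 to 115, was below it.

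Of 6 genes of the ejaculatory duct and bulb, 1 was raised and 3 stood above the range. EbpII, an ejaculatory bulb protein, read 598 at hour 7 against 20.7 to 33 (median 29.6), which is at least 10.5-fold. This was the largest difference of any probe set with a single gene, and all 9 other arrays lay under the floor. Obp56g, an odorant binding protein also made in the bulb, read 519 against 233 to 353, a log2 difference of 0.97. Anp, an antibacterial peptide of the ejaculatory duct, read 190.2 against 107 to 141, a log2 difference of 0.59. EbpIII read 1803 against 1175 to 2078, inside the range. Gld, glucose dehydrogenase, which the duct and several other tissues make, read 119.9 against 113 to 139.7, also inside it.

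**Figure D2:**
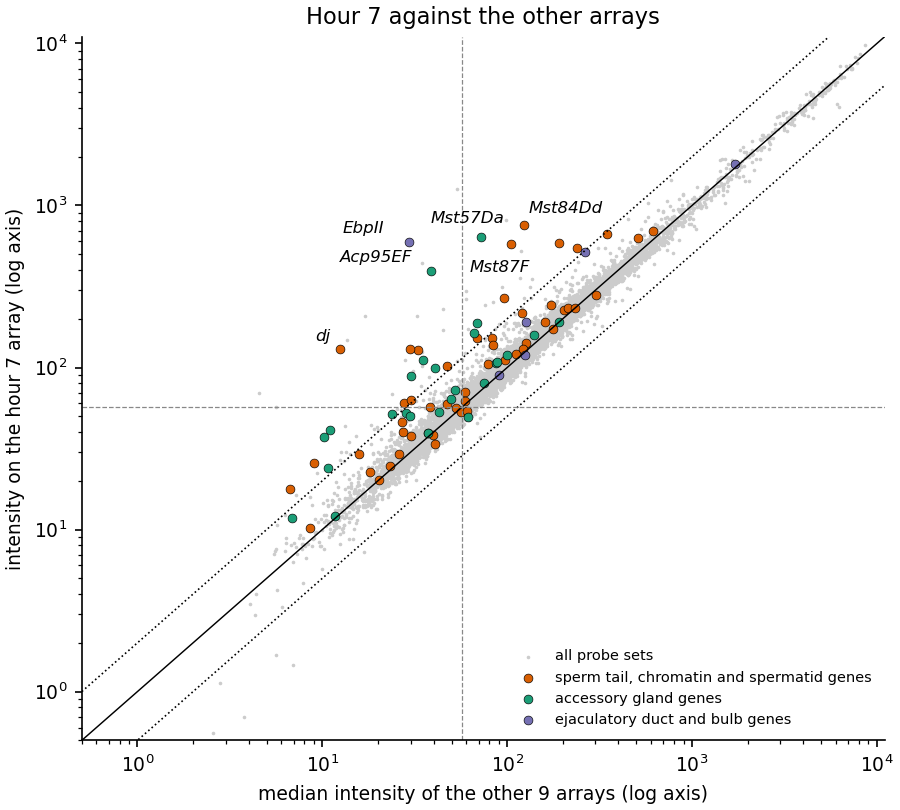
Hour 7 intensity against the median intensity of the other 9 arrays, both on log axes, with 1 point per probe set. Dotted lines mark 2-fold and dashed lines the floor at 57.2. Coloured points are genes of the sperm tail, sperm chromatin, spermatid differentiation, accessory gland, and duct and bulb lists. The testis proteasome, spermatocyte arrest and early germline lists are not coloured. EbpII, Mst57Da, Acp95EF, Mst84Dd, Mst87F and dj lie above the upper 2-fold line, and most probe sets follow the diagonal.

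The 39 raised probe sets ranged from 2.00-fold to 22-fold on the floored scale, with a median of 2.96, and 11 were raised 4-fold or more. 31 named 1 gene each, 5 named several genes and 3 named none. The probe set with the largest fold was one of several genes and read 1261 at hour 7 against 44.6 to 72.3. 13 of the 39 had a median under the floor on the other arrays. In 35 the other 9 arrays lay within 2-fold of each other, and in 30 hour 7 was at least 2-fold above the highest of them. Of the 31 named genes, 14 were in the lists of male tissue, 17 in none and 0 in another list. The male lists held 110 of the 10844 genes measured and were chosen with earlier results known, so nothing is read from this count.

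The 17 raised genes outside the lists are known mostly by number. Ebp, an ejaculatory bulb gene by its name, was not counted among the 6 measured genes of the duct and bulb list. It read 444 at hour 7 against 27.9 to 47.7 (median 34.5), at least 7.76-fold. salto read 297 against 51.2 to 67.0 (median 59.7), a log2 difference of 2.32. CG8701 read 264 against 54.0 to 91.1 (median 59.8), a log2 difference of 2.14. The rule for raised leaves no overlap between hour 7 and the other arrays in these 3. CG34168 read 228 against 32.8 to 51.0, at least 3.99-fold, and CG12861 read 209 against 13.4 to 19.7, at least 3.65-fold. Hsp60B, a chaperonin needed in the testis for sperm individualization, read 124 against 31.8 to 40.6, at least 2.17-fold. All 6 stood above every other array, as the rule requires.

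2 raised genes carry names of RNAs that are not translated. CR17567 read 355 against 114 to 128, a log2 difference of 1.59. lncRNA:CR9284 read 147 against 8.77 to 17.3, at least 2.58-fold. The remaining raised genes were CG12699, CG4836, CG2127, CG31988, CG5966, CG1394, CG12177, Hs6st and CG4691, with log2 differences between 1.00 and 1.60, CG4691 being the lowest and CG12699 the highest. Hs6st encodes a heparan sulfate sulfotransferase. Hs6st and CG12177 varied most among the other arrays, by 4.39-fold and 2.40-fold, so that their highest other arrays reached 147 and 356 beside 152 and 517 at hour 7.

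Only 3 of the 31 genes had further probe sets naming that gene alone, and none of these further probe sets was raised. The remaining raised genes could not be checked on a second probe set. A second probe set of CG12699 read 155 against 129 to 183, and a second one of CG1394 read 159 against 156 to 180.3. Both lay inside the range of the other arrays, unlike the raised probe set of the same gene. The other probe sets of Hs6st read 68.0 and 79.2, also inside the range. For these 3 genes the probe sets disagree, and which one reads the transcript was not tested.

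Some raised genes were neighbours in the gene order of the RefSeq annotation of Release 6. 30 of the 31 could be placed, and 7 had another raised gene within 3 steps, in 5 pairs. The share to set beside this over all genes was not counted, so nothing is read from the number. EbpII and Ebp were adjacent, CG2127 was next to CG8701, and Mst84Da, Mst84Db and Mst84Dd lie in 1 cluster. Mst84Dc, between Mst84Db and Mst84Dd, had 671 and missed the 2-fold rule narrowly. Genes of one cluster can be similar in sequence, and cross-hybridisation between their probe sets was not tested.

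On the floored scale the values on both sides of the threshold were as follows. Just inside it, CG12177 had a log2 difference of 1.01, Hs6st of 1.00 and CG4691 of 1.00. Just outside it, Obp56g had 0.97, Jhbp5 at least 0.97 and Acp32CD at least 0.96. The other arrays lay under the floor for Jhbp5 and Acp32CD, whose differences between the intensities as deposited were 1.99 and 1.66. A further 63 probe sets lay above the range with differences between 1.5-fold and 2-fold, of which 58 named 1 gene and 12 were in the male lists. Over all lists of male tissue, 55 of 110 genes measured stood above the range, beside 1143 of 10844 over all genes, which is 10.5%. The array and the lists were chosen with earlier results known, so nothing is read from that difference.

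**Figure D3:**
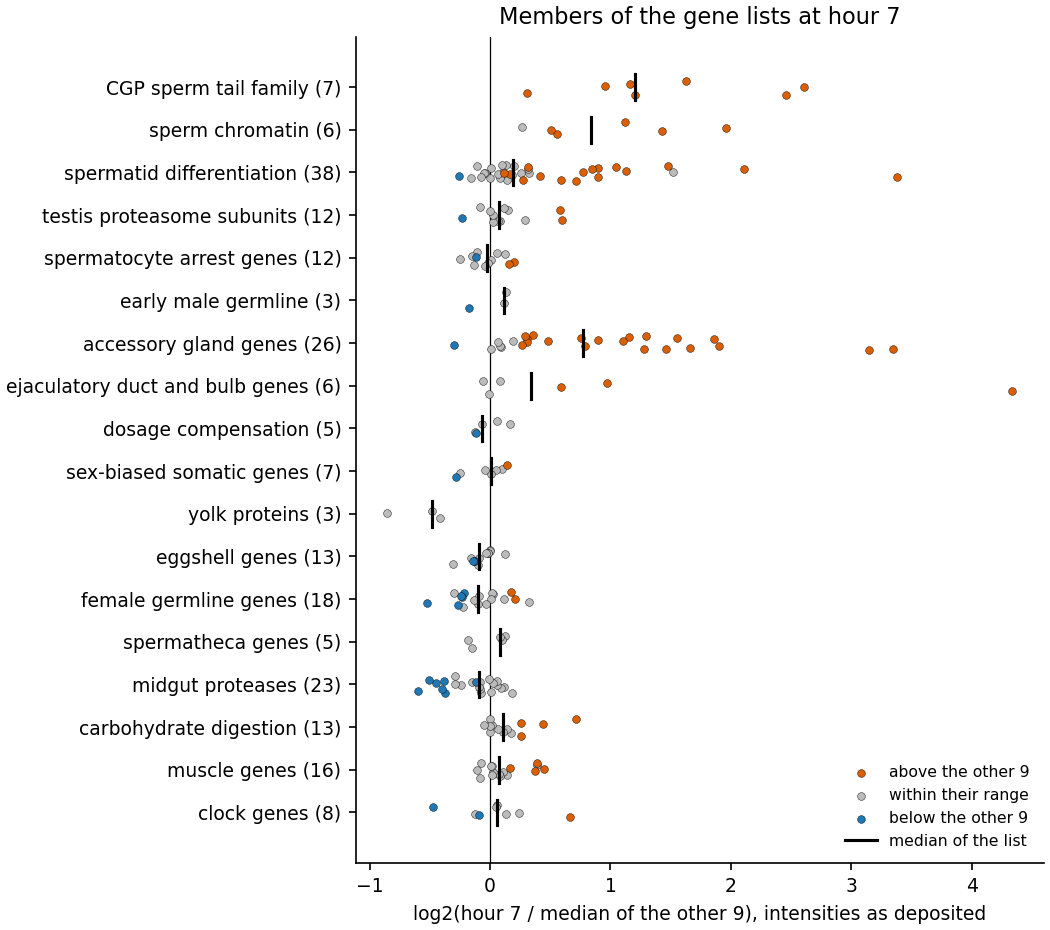
Log2 difference of hour 7 from the median of the other 9 arrays, from intensities without the floor, for each measured gene of 18 lists (points, spread vertically at random), with the list median as a black line. Orange points lie above all other arrays and blue points below. The sperm tail family has a median of 1.20, the accessory gland genes 0.77 and the yolk proteins -0.48.

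Genes of female tissue were not raised, and some lay below the other arrays. Over all genes, 867 of 10844 lay below the range of the other 9, which is 8%. Of the yolk protein genes, Yp1 read 180.1 at hour 7 against 162 to 1332 (median 326), Yp2 read 175 against 166 to 1135 and Yp3 read 366 against 271 to 1072. All 3 were inside a wide range, with a median difference of -0.48, and the list medians of the other arrays ran from -0.92 to 2.40. Of 13 eggshell genes 2 lay below the range and 0 above, and the list had a median of -0.02, or -0.09 without the floor. In 18 female germline genes, 5 lay below and 2 above, and the median was -0.02, or -0.10 without the floor. Compared in the same way, other arrays had up to 4 of these 18 below and up to 8 above. Their medians for this list ran from -0.13 to 0.25, or from -0.17 to 0.25 without the floor. For the eggshell genes other arrays had up to 3 below and up to 5 above. yl, the yolk protein receptor of the oocyte, read 309 against 360.2 to 714 (median 445), a log2 difference of -0.53. orb, an RNA-binding regulator of the oocyte, read 242 against 262 to 437, and CycB, a mitotic cyclin stored in the egg, read 597 against 611 to 928. In contrast nanos, a maternal messenger, read 344 against 283 to 327, above the range. Whether these female values moved with the male ones for a shared reason was not tested.

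Genes that set or follow sex in somatic cells differed little. Of 5 measured dosage compensation genes 0 were raised, and msl-2, whose protein is made in males, read 113 against 116 to 139.5, below the range. Of 7 sex-biased or sex-determining genes, Obp99b read 118 against 102 to 111 and lay above the range. dsx, doublesex, the transcription factor at the end of the sex hierarchy, read 79.1 against 89.9 to 277 and lay below it. Spermatheca genes, which mark the sperm store of the female, had 0 of 5 outside the range on either side.

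**Figure D4:**
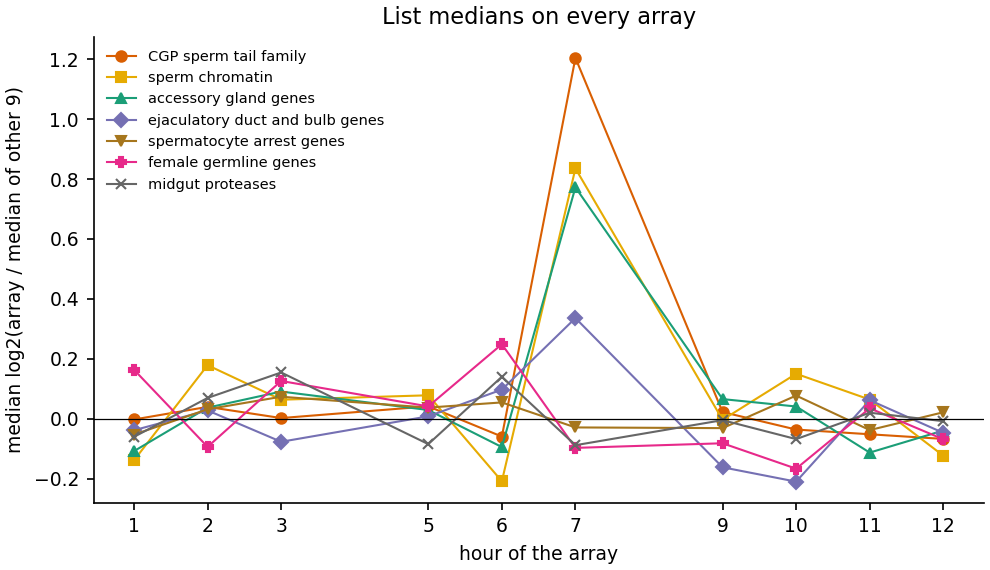
Median log2 difference of 7 gene lists when every array in turn is compared with the median of its other 9, without the floor, by hour. At hour 7 the sperm tail family stands at 1.20 and the accessory gland genes at 0.77, and on the other 9 arrays the sperm tail family lies between -0.07 and 0.04.

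Among digestive genes, the serine proteases of the midgut had 7 of 23 below the range and 0 above, with a median of -0.09. Jon65Aii, a Jonah protease, read 305 at hour 7 against 421 to 616 (median 463), a log2 difference of -0.60. Its relative Jon25Biii read 438 against 485 to 952, a log2 difference of -0.51. thetaTry, a trypsin, read 209 against 247 to 416, a log2 difference of -0.45. Other proteases were inside the range, such as betaTry with 5027 against 4346 to 6614 and alphaTry with 2630 against 2047 to 3252. The genes of carbohydrate digestion had 4 of 13 above the range and 0 below, and hour 3, compared in the same way, had 5 above. The maltase gene Mal-A6 read 158 against 73.2 to 125, a log2 difference of 0.72, and Mal-A1 read 546 against 296 to 529, one of 0.44.

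3 of 10 genes of the fasting response stood above the range, none by 2-fold, and hour 3 had 4 above its range. Pepck1, a key enzyme of glucose synthesis, read 1062 at hour 7 against 571 to 956, a log2 difference of 0.54. Its paralog Pepck2 read 122 against 72.2 to 98.6, a log2 difference of 0.53. bmm, the Brummer triglyceride lipase, read 275.5 against 216 to 274, a log2 difference of 0.18. Hsp68, an inducible chaperone, was the heat shock gene above the range, with 80.4 against 43.5 to 49.8. The antimicrobial peptide genes had 0 of 7 outside the range.

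Muscle genes had 4 of 16 above the range and 0 below, a number that hour 2 matched with 4 and hour 6 passed with 6. Act88F, the actin of the flight muscle, read 1174 against 535 to 1119, and fln, the flightin of its thick filament, read 215 against 119 to 198. Of 8 measured clock genes 1 lay above the range and 2 below, and other arrays had up to 2 on each side. Clk read 84.6 against 47.2 to 78.8. The gene tim, for the light-sensitive partner of Per, read 251 against 258 to 786 and lay just below the range. Of these lists of muscle, clock, photoreceptor, neuron and hemocyte genes, 0 genes were raised or lowered by the 2-fold rule.

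Since no probe set was lowered 2-fold, the lowest values were taken at 1.5-fold, a choice made after the values were seen. 7 probe sets lay below the range by that much, 6 of them with 1 gene. CG18404 read 261 at hour 7 against 316 to 662, a log2 difference of -0.67. Dp, the partner of E2F in the cell cycle, read 186 against 223 to 324, a log2 difference of -0.66. Peritrophin-15a, which binds chitin and is made in the gut, read 511 against 674 to 1205, a log2 difference of -0.63. CG10165 had a log2 difference of -0.63 and CG15651 one of -0.61. The sixth gene was Jon65Aii, and the probe set of several genes read 4040 against 5847 to 7058.

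The same rule applied to each array in turn, with hour 7 among the comparators of the others, gave 328 raised and 1 lowered at hour 3, 32 and 2 at hour 9, and 0 and 13 at hour 10. The other 6 arrays had at most 6 raised and at most 2 lowered. Hour 7 was thus the second of the arrays by its number raised, after hour 3, and hour 3 was also the next highest array for 13 of the 39 probe sets raised at hour 7. The median intensity of the hour 7 array was 115.6, second to hour 3 with 120.0, and the remaining arrays ran from 111.1 to 114.4. The share of its values under the floor, 19.1%, was the lowest of the 10 arrays. The 3' to 5' signal ratio of the control transcripts, a measure of RNA integrity, was 1.81 for actin at hour 7 against 1.80 to 2.56 elsewhere. For GAPDH it was 2.88, below the 3.07 to 4.77 of the other arrays. The ratios for eIF-4a, 4.01 against 2.94 to 4.80, and for the 18S ribosomal RNA, 3.05 against 2.43 to 9.36, lay inside the range. The part of RNA integrity in the differences at hour 7 was not tested.

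**Figure D5:**
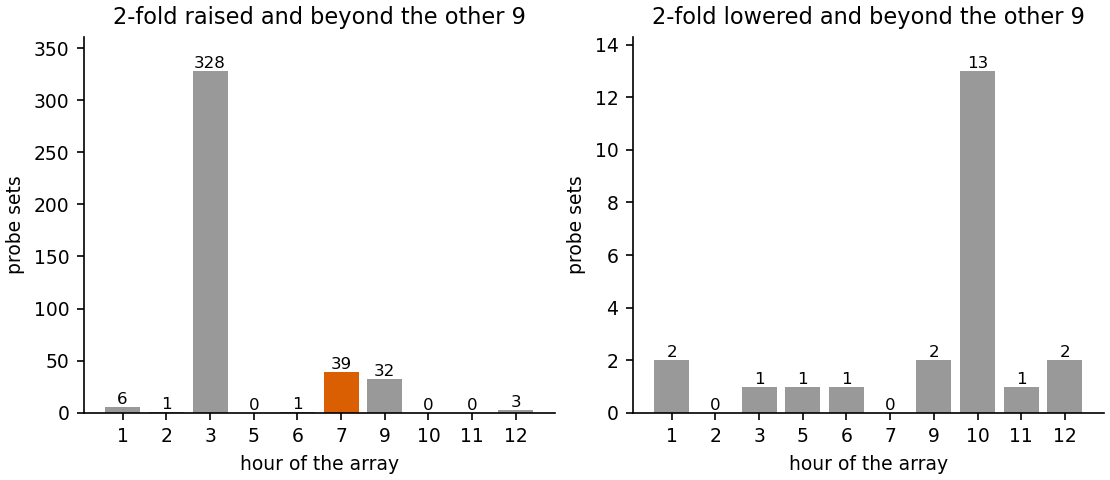
Number of probe sets raised (left) and lowered (right) on each array by the 2-fold and range rule, each array compared with the other 9 and hour 7 in orange, with the counts above the bars. Hour 7 has 39 raised and 0 lowered, and hour 3 has 328 raised.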

How the data were processed

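Total RNA from whole flies, extracted with Trizol, was hybridised at a core facility, per the labels. Per the labels, arrays were brought to a common scale in dChip through an invariant set of probes. Its version is not given in the sources used here. Each deposited value is an intensity and was not logged. They compare 1 probe set between arrays, not probe sets with each other, and a shift shared by most transcripts would have been removed.

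Of 14010 probe sets, 44 controls were left out. GEO's platform annotation named 1 gene for 12443, several for 327 and none for 1196. Symbols were updated through the RefSeq gene table of Release 6 for 12394 and kept for 49. Differences are log2 of hour 7 minus log2 of the median of the other 9. For lists, a gene is read from its brightest probe set, and range counts use intensities without the floor. The array and the gene lists were chosen with earlier results of these data known. Named were the 3 marker genes, the 20 largest raised, 3 on each side of the threshold, raised members of the lists and up to 4 of their brightest; other named genes were picked with their values in view. An alternative filter on dim probe sets dropped those with a mean log2 under the 40th percentile. The rule for raised and lowered was tried on simulated arrays, with changes larger than 2-fold planted in brighter probe sets only. Changes at the 2-fold threshold, and planted changes in dim probe sets, were not tried. Python 3.11.15, pandas 2.3.3, numpy 2.4.6 and matplotlib 3.10.9 were used.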

Additional observations from a re-analysis of the deposited data

How the results depend on the processing

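All 31 raised genes stayed above the other arrays' reference level in every setting in which they were measured. Being raised puts hour 7 above every other array, so this was fixed in advance except under quantile normalization and median centring. By 2-fold it was 22 to 31 of them, apart from the filter on dim probe sets, which left 12 genes. The count of 39 raised was 76 without a floor, 15 with the filter, 102 at 1.5-fold and 19 at 3-fold, and 37 to 40 when each other array was left out. The count of 0 lowered was 6 without a floor, 7 at 1.5-fold and 1 against the nearest 4 arrays; this last was an unnamed probe set with 58.2 at hour 7. The sperm tail median of 1.20 was 1.06 with an offset of 50, 1.29 with quantile normalization, 1.27 against the nearest 4 arrays and 1.41 with the filter. The accessory gland median of 0.12 depended most on the floor: it was 0.77 without one, 0.41 with one at the 5th percentile and 0.27 with the offset. It was 0.090 with quantile normalization, 0.094 with median centring, 0.092 against the nearest 4 arrays, 0.10 with the mean of log2 values, 0.19 with the filter, 0.14 over all probe sets of a gene and 0.10 to 0.12 leaving out 1 array. Of these genes 1 was above the range after the filter, beside 20 of 26 before it. The filter removes dim probe sets and with them most of these genes. Its medians of 1.41 and 0.19 therefore describe fewer genes, and no change in any gene. None of the 31 raised genes changed sign, which the rule for raised fixed in advance outside quantile normalization and median centring. List medians near 0 were not held to this, and that of the spermatocyte arrest genes was 0 with the floor and -0.03 without it. No paired analysis was possible because each hour has 1 array. Intensities near the floor limit the fold that can be given for dim genes, and 1 array at hour 7 limits every value above.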

Other observations

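Without the floor, 37 further probe sets were raised at hour 7, of which 21 had an hour 7 intensity under the floor. 13 of the 36 with a single gene were in the lists of male tissue, which held 110 of the 10844 genes measured. A second probe set of scpr-B, a spermatid gene, read 69.3 at hour 7 against 2.43 to 9.39 on the other arrays, while its brightest probe set read 24.8 against 21.3 to 29.8 and lay inside the range. Spn77Bb, an accessory gland serpin, read 102 against 31.3 to 39.1 on a second probe set and 63.7 against 45.7 to 53.6 on the brightest. Hsp60C, a relative of the raised chaperonin Hsp60B, read 94.7 against 26.3 to 34.8. CG18284 read 56.9 against 3.52 to 9.35, and Jhbp5 read 112 against 19.0 to 31.1. 6 probe sets were lowered without the floor, and none of their intensities on any array was over 22.7. These genes were chosen after their values were seen, and they have no test.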
